A study of Mus musculus with 4 samples.

Results

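Cytotoxic lymphocytes kill by releasing granules that hold perforin and granzymes, and 10 genes of that machinery were followed here in single CD4+ T cells of the mouse gut. They were chosen by name, as 10 of the 31053 genes listed in each count matrix. Of these, 5 encode granzymes (Gzma, Gzmb, Gzmc, Gzmk and Gzmm), 1 encodes perforin (Prf1), 2 encode granule companions (Ctsw and Nkg7) and 2 encode serpins (Serpinb9 and Serpinb6b). The cells were taken from wild-type C57Bl/6 mice, from the lamina propria of the small intestine, which is the layer of connective tissue that carries the epithelium. Peyer's patches had been taken out, the epithelium washed off with EDTA and the tissue digested with collagenase D. Live cells bearing CD45, CD3 and CD4 were then sorted and sequenced as 4 libraries with the Chromium 5′ chemistry. The libraries form 1 group with no treatment or second genotype, and the sources used here give no age, so comparisons were made between cells within libraries. The labels do not tie each library to 1 mouse, so p-values and standard errors speak only for these libraries. The fits estimate the spread partly from all genes together, so a standard error can be smaller than a gene's own spread between libraries.

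Perforin forms pores in the membrane of a target cell, and granzymes are serine proteases that need those pores to enter it. Granzyme B cleaves after aspartate and activates caspases, granzyme A and granzyme K cleave after basic residues, and granzyme M after methionine or leucine. Granzyme C belongs to a mouse cluster of granzyme genes beside Gzmb. Nkg7 is a granule membrane protein needed for efficient release, cathepsin W is a papain-family protease of T and natural killer cells, and Serpinb9 is an intracellular inhibitor of granzyme B that protects the cell carrying it. Serpinb6b is a related clade B serpin. In the gut, granzymes are best known from CD8+ intraepithelial lymphocytes, while perforin is usually scarce in CD4+ T cells.

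The genes lie on 5 chromosomes of mm10. On the minus strand of chromosome 13, Gzma (ENSMUSG00000023132) occupies chr13:113093825-113100981 and Gzmk (ENSMUSG00000042385) occupies chr13:113171608-113225908, with 70.6 kb between them. Both serpins lie elsewhere on chromosome 13, Serpinb6b (ENSMUSG00000042842) at chr13:32965209-32979067 and Serpinb9 (ENSMUSG00000045827) at chr13:33003250-33017957, 24.2 kb apart. Gzmb (ENSMUSG00000015437, chr14:56258838-56262260) and Gzmc (ENSMUSG00000079186, chr14:56231441-56234656) are also 24.2 kb apart. Prf1 (ENSMUSG00000037202) is at chr10:61297833-61304680 and Gzmm (ENSMUSG00000054206) is at chr10:79689020-79695261, while Nkg7 (ENSMUSG00000004612) is at chr7:43437073-43438249 and Ctsw (ENSMUSG00000024910) at chr19:5465043-5468507.

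The promoters of perforin and of the 3 granzymes that could be paired with it are shown because these genes were later found in the same cells more often than expected. Each runs 5′ to 3′ from 250 bases before to 50 bases after the RefSeq start, in GRCm38.p6, the assembly behind mm10. Capitals mark matches, on either strand, to a RUNX core (TGTGGT), a T-box core (TCACACC), an AP-1 site (TGACTCA) or a CREB/ATF site (TGACGTCA), none of which overlapped here. The Prf1 window is chr10:61297586-61297885 on the plus strand, the Gzmb window chr14:56262285-56262584, the Gzma window chr13:113100932-113101231 and the Gzmk window chr13:113180916-113181215, all 3 on the minus strand. The RefSeq start of Gzmk lies inside the longer GENCODE span given above.
Prf1: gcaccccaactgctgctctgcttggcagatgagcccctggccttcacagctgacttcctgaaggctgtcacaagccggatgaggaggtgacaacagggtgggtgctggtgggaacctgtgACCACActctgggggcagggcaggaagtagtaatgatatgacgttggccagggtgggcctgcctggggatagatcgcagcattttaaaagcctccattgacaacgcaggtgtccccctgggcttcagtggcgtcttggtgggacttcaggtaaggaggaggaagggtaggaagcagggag
Gzmb: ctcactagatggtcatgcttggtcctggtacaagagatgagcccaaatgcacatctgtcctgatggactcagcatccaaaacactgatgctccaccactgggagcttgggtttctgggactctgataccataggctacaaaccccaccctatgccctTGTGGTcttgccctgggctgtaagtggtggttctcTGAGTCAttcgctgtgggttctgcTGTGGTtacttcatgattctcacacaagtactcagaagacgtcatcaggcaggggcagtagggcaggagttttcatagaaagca
Gzma: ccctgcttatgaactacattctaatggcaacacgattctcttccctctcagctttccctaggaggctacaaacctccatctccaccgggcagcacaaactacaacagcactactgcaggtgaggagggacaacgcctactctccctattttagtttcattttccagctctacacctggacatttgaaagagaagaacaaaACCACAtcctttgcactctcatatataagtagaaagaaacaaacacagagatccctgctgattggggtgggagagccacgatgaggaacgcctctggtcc
Gzmk: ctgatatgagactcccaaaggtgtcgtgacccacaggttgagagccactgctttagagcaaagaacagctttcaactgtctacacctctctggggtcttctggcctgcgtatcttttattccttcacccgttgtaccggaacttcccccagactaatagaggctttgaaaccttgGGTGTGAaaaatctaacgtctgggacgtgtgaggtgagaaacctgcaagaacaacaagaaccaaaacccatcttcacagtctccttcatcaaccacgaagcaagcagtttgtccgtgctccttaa
The Prf1 and Gzma windows each held 1 RUNX match, the Gzmb window held 2 with an AP-1 match between them, and the Gzmk window held 1 T-box match and no RUNX match. Of 32851 RefSeq promoters of this length, 16.8% held the RUNX core, 3.98% the T-box core, 5.20% the AP-1 site and 1.79% the CREB/ATF site. A match describes letters in the window and is not a binding site.

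After removal of low-quality barcodes and likely doublets, 21501 of 22904 barcodes were kept, 5149 to 5626 per library. A unique molecular identifier (UMI) counts 1 captured transcript, and the kept cells had a median of 3848 UMIs, between 3630 and 4173.5 in the 4 libraries. Pairs of libraries shared 34 to 55 barcodes. The sort's label held: the summed T cell markers (Cd3e, Cd3d, Cd3g, Trac and Cd4) were between 4911 and 5138 CPM (UMIs of a gene scaled to a common sum of 1000000 UMIs), with Cd4 itself at 369 ± 13.7 CPM (SD, n = 4 libraries). Each cell was placed in the first of 5 gates it met, from at least 1 UMI of Foxp3 (the factor of regulatory T cells), Il17a, Cd8a or Ifng, and otherwise in the rest. The Foxp3 gate held 1535 cells, the Il17a gate 586, the Cd8a gate 585, the Ifng gate 6332 and the rest 12463. A cell without a UMI of a gate gene may still make it, so the rest is defined by what was detected. A UMI of a later gate gene was also found in 205 cells of the Foxp3 gate and 168 of the Il17a gate. Library 4 stood apart in the Cd8a gate, which held 5.94% of its cells, against 1.65% to 1.78% in the other 3 libraries.

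Most granzyme A and granzyme B transcripts sat in a small part of the cells, and perforin gave few UMIs in any cell. Over all cells of a library, Gzma had 1586, 1744, 1651 and 1802 CPM in libraries 1 to 4 and Gzmb had 904, 944, 937 and 994 CPM. Prf1 had 16.5, 21.5, 23.9 and 27.9 CPM, lowest in library 1 and highest in library 4. A single cell held up to 1057 UMIs of Gzma, and 4.17% of the cells held 50% of its 165025 UMIs. Prf1 gave 2171 UMIs in 1941 cells and never more than 4 in a cell, with exactly 1 in 88.9% of the cells that had any. A cell without a Prf1 UMI was therefore often not distinguishable, at this depth, from one with a low perforin level.

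Of the other members, Gzmk averaged 114 ± 20.3 CPM, Nkg7 976 ± 109 CPM, Ctsw 391 ± 5.18 CPM, Serpinb9 125 ± 16.2 CPM and Serpinb6b 174 ± 13.7 CPM (SD, n = 4 libraries each). Gzmc had 3.18 ± 0.869 CPM, from 314 UMIs in 202 cells. Gzmc shares 3.79% of its 50-base transcript windows with Gzme, 2.49% with Gzmg and 0.355% with Gzmd. Some of its reads may therefore not be assignable to 1 gene. Gzmb shared no such window with Gzmc, with 80.5% identity over 821 aligned bases. Gzmm was all but undetected, with 49 UMIs in 42 cells, and entered no test. These levels compare libraries and cell groups for 1 gene, not 1 gene with another, since counts were not scaled by transcript length.

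To compare shares of cells at equal depth, each cell was thinned at random to 2000 UMIs, and cells with fewer UMIs did not enter those shares. With a thinned UMI required, 35.0% ± 1.12 of the cells were positive for Gzma, 28.0% ± 0.949 for Gzmb, 14.7% ± 1.94 for Gzmk and 4.91% ± 1.14 for Prf1 (SD, n = 4 libraries). Without thinning the shares were 41.2%, 33.0%, 22.5% and 9.07%. Nkg7 was seen in 67.8% of thinned cells, Ctsw in 49.1%, Serpinb6b in 23.8% and Serpinb9 in 17.1%, against 77.5%, 67.3%, 37.7% and 27.7% without thinning. As a gauge of free RNA, 24 thinned cells had almost no T cell transcripts but many of B, myeloid or epithelial cells. None of them held Gzma, Gzmb, Gzmk, Nkg7 or Prf1, at a median of 7829 UMIs before thinning against 3899 in the other cells. A count of 0 of 24 allows a share of up to 12.5%, and its exact Clopper-Pearson 95% interval reaches 14.2%. The shares of Gzma, Gzmb and Nkg7 lay above both limits in every library, whereas Gzmk in library 2 (12.2%) and Prf1 in every library lay below them. Such a cell carried Ctsw or Serpinb9 in 1 of 24 cases each and Serpinb6b in 2. These limits, and the intervals below, cover counting error only.

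**Figure D1:**
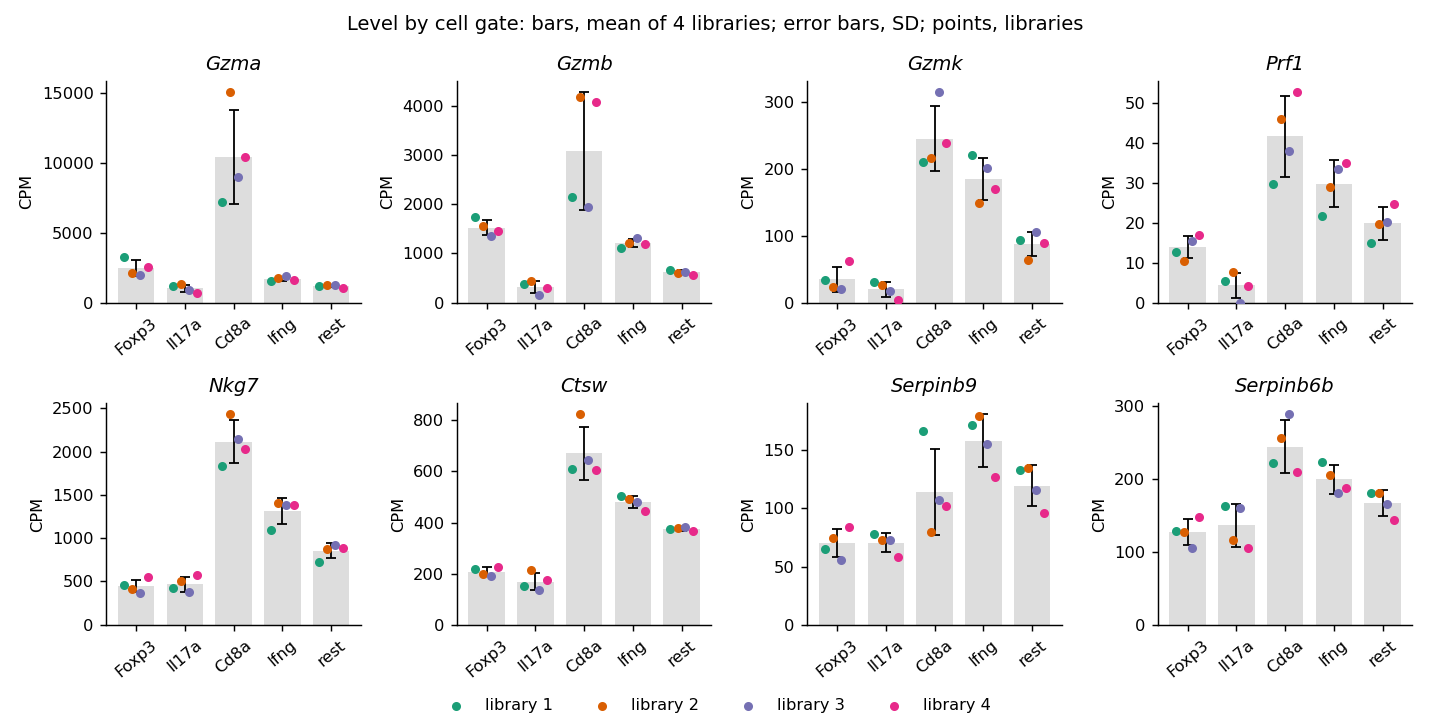
Levels in CPM of 8 members (without Gzmc and Gzmm) by gate, with bars at the mean of the 4 libraries, error bars of 1 SD and 1 point per library. Each panel has its own axis, which starts at 0. Gzma and Gzmb were highest in the Cd8a gate and next in the Foxp3 gate, whereas Prf1 and Gzmk were next highest in the Ifng gate; Gzma means were 10394 CPM in the Cd8a gate and 2487 CPM in the Foxp3 gate.

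Each gate was compared with the rest in 1 edgeR quasi-likelihood fit over all 20 library and gate sums, with the library as a block and Benjamini-Hochberg adjustment over 9815 genes. The 4 comparisons share the same rest cells, so their values are set side by side and not counted together. In these summed counts, fewer cells with a transcript and less of it per cell cannot be told apart.

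Cells with Foxp3 carried more granzyme A and granzyme B and less of every other member tested apart from Gzmc. Gzmb had 1740, 1550, 1363 and 1455 CPM in the Foxp3 gate, against 654, 609, 632 and 562 CPM in the rest. All 4 Foxp3 sums lay above all rest sums, a log2 fold change of 1.34 ± 0.17 (SE, adjusted p = 2.21e-06, edgeR). Gzma behaved alike, with 3259, 2140, 1998 and 2548 CPM in the Foxp3 gate and 1172, 1266, 1232 and 1041 CPM in the rest, a difference of 1.11 ± 0.16 on the log2 scale (adjusted p = 1.13e-05, edgeR). Gzmk went the other way, with 33.7, 23.0, 20.3 and 62.1 CPM in the Foxp3 gate against 93.4, 63.6, 106 and 88.6 CPM in the rest (log2 fold change −1.32 ± 0.22). The groups did not overlap for any of these granzymes, though for Gzmk they were parted only by 62.1 against 63.6 CPM. The share of all genes whose groups do not overlap is not given, here or below. A lack of overlap therefore describes the values and does not set the members apart from other genes.

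Perforin did not rise with the granzymes in the Foxp3 gate. Prf1 had 12.7, 10.5, 15.4 and 16.9 CPM there and 14.9, 19.6, 20.2 and 24.8 CPM in the rest, lower within every library although the ranges overlapped. Its log2 fold change was −0.49 ± 0.14 (adjusted p = 0.0123, edgeR), but the adjusted p was 0.124 without library 2 and 0.0947 without the library block, and on thinned cells the difference was −0.09 with an adjusted p of 0.844. Nkg7 (−0.90 ± 0.09), Ctsw (−0.82 ± 0.08) and Serpinb9 (−0.74 ± 0.12) were also lower in the Foxp3 gate. Serpinb6b was lower by a smaller margin, at −0.37 ± 0.11 (adjusted p = 0.0136), and lost the call without library 1, 2 or 3. In all, 2 members rose and 6 fell of 9 tested, where 31.1% of all genes passed, 17.2% higher and 13.9% lower. Epithelial markers summed to 73.9 to 104 CPM in the Foxp3 gate and 12.5 to 20.2 CPM in the rest. B cell markers summed to 37.5 to 45.1 CPM, against 8.58 to 12.1 CPM, myeloid markers to 208 to 242 CPM, against 140 to 152 CPM, and CD8 chains to 12.9 to 23.1 CPM, against 2.67 to 6.45 CPM. Gamma-delta T cell genes went the other way, at 25.5 to 128 CPM in the Foxp3 gate against 194 to 332 CPM in the rest. Plasma cell markers had 11.9, 277, 10.4 and 1413 CPM in libraries 1 to 4 of the Foxp3 gate, against 139 to 694 CPM. The part of these markers in the differences was not tested.

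The Il17a gate had the least perforin and the least granzyme K. It gave 19 Prf1 UMIs in all, as 5.44, 7.62, 0 and 4.10 CPM in libraries 1 to 4, all below the 14.9 to 24.8 CPM of the rest. In library 3, a count of 0 allows up to 5.93 CPM. The log2 fold change of Prf1 was −1.93 ± 0.27 (adjusted p = 1.53e-05, edgeR), and that of Gzmk was −2.02 ± 0.31. Gzmb had 373, 440, 160 and 292 CPM in the Il17a gate, below the 562 to 654 CPM of the rest in every library (−0.90 ± 0.20, adjusted p = 0.00182). Gzma was a contrast to both, with 1156, 1301, 913 and 663 CPM against 1172, 1266, 1232 and 1041 CPM in the rest, and its groups overlapped (−0.21 ± 0.17, adjusted p = 0.421). Ctsw, Nkg7 and Serpinb9 fell as well, so 6 of 9 members tested fell and 0 rose, with 23.7% of all genes past the threshold, 13.1% higher and 10.7% lower. Il17a cells were the deepest, at a median of 5215.5 UMIs against 3729 in the rest.

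In the Cd8a gate granzymes A, B and K and perforin all rose. Of its 585 cells 267 also held a UMI of Ifng, which no cell of the rest did. Gzma had 7173, 15072, 8960 and 10372 CPM in it, against 1041 to 1266 CPM in the rest, a log2 fold change of 3.08 ± 0.17 (adjusted p = 6.15e-11, edgeR). The lowest Cd8a sum was several times the highest sum of the rest. Gzmb had 2148, 4181, 1949 and 4082 CPM there (2.26 ± 0.18), and Gzmk had 210, 216, 316 and 239 CPM (1.44 ± 0.20), both above all sums of the rest. Prf1 had 29.7, 46.0, 38.0 and 52.9 CPM, above the 14.9 to 24.8 CPM of the rest in every library (1.05 ± 0.17, adjusted p = 0.000112).

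Both companions and 1 of the 2 serpins rose in the Cd8a gate. Nkg7 rose by 1.26 ± 0.09, Ctsw by 0.78 ± 0.08 and Serpinb6b by 0.49 ± 0.12 on the log2 scale, the last not passing without library 3 (adjusted p = 0.0642). Serpinb9 had 167, 79.9, 107 and 102 CPM in the Cd8a gate and 132, 135, 116 and 95.8 CPM in the rest, with overlapping groups and no call (−0.10 ± 0.15, adjusted p = 0.784). Of 9 members tested, 7 rose and 0 fell, against 11.3% of all genes past the threshold, 4.79% higher and 6.51% lower. These cells had been sorted for CD4, and Cd4 was at 296 to 397 CPM in them, against 350 to 376 CPM in the rest.

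Transcripts of other cell types moved with the Cd8a gate. Markers of natural killer cells and type 1 innate lymphoid cells summed to 459, 550, 375 and 21.5 CPM in libraries 1 to 4 of the gate, against 26.4 to 42.8 CPM in the rest. They were made up mainly of Tyrobp and Fcer1g, with Ncr1 at 0. Klrb1c and Eomes of the same list were lower on average, without passing. Klrb1c had a mean of 6.21 CPM in the gate and 10.8 CPM in the rest, and Eomes 2.72 and 4.29 CPM. Siglech, a marker of plasmacytoid dendritic cells, had 162, 84.8, 169 and 0 CPM, and 3 of the 24 cells with almost no T cell transcripts held Cd8a. In library 4 the gate had 10372 CPM of Gzma, 4082 CPM of Gzmb and 52.9 CPM of Prf1. Its sum of gamma-delta T cell genes was the highest of the 4 libraries, at 1432 CPM. The whole plasmacytoid list (Siglech, Bst2 and Ccr9) summed to 895, 642, 956 and 601 CPM in the gate, against 561 to 796 CPM in the rest. Gamma-delta T cell genes, mostly Trgv2, summed to 794, 1046, 800 and 1432 CPM in the gate and 194 to 332 CPM in the rest. The part of these cell types in the result was not tested.

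Cells with Ifng had more perforin, granzyme B and granzyme K. Prf1 had 21.8, 29.1, 33.5 and 35.0 CPM in the Ifng gate, against 14.9, 19.6, 20.2 and 24.8 CPM in the rest, and rose within each library though the ranges overlapped (0.56 ± 0.09, adjusted p = 0.000245, edgeR; 0.078 without the library block). Gzmk had 220, 149, 201 and 170 CPM in the Ifng gate, all above the 63.6 to 106 CPM of the rest (1.06 ± 0.16; adjusted p = 0.087 with DESeq2). Gzmb, at 1110 to 1323 CPM against 562 to 654 CPM, rose by 0.96 ± 0.17. Gzma had 1568, 1771, 1876 and 1588 CPM, above the 1041 to 1266 CPM of the rest, but did not pass (0.51 ± 0.16, adjusted p = 0.0645), whereas it passed on thinned cells (0.00323) and without library 1 (0.0335).

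Nkg7 rose by 0.60 ± 0.08 in the Ifng gate. Ctsw (0.34 ± 0.07) and Serpinb9 (0.38 ± 0.10) rose too, although Ctsw lost the call without library 1 and Serpinb9 without library 1 or 3, and both did without the library block. In all, 6 of 9 members tested rose and 0 fell, beside 6.30% of all genes past the threshold, 2.91% higher and 3.38% lower.

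**Figure D2:**
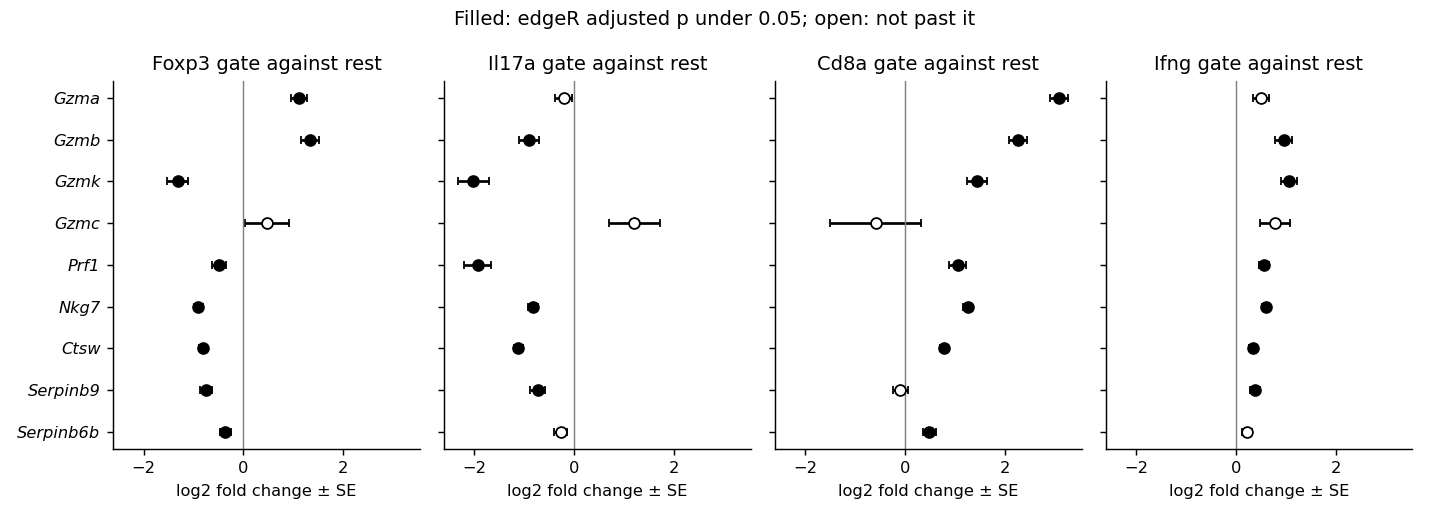
Log2 fold change of each member in a gate against the rest, with bars of 1 standard error from the edgeR fit over 4 libraries and filled points where the adjusted p was under 0.05. Gzma and Gzmb were above 0 in the Foxp3 gate at 1.11 and 1.34, while Prf1 was at −0.49 there.

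The gates thus ordered the genes differently. For Gzmb the order was Cd8a, Foxp3, Ifng, rest and Il17a, and no neighbours in it overlapped between libraries. Gzma kept the same order, with an overlap only between the rest and the Il17a gate. For Prf1 the order was Cd8a, Ifng, rest, Foxp3 and Il17a, and neighbours overlapped except for the Foxp3 and Il17a gates, where 10.5 to 16.9 CPM stood against 0 to 7.62 CPM. Gzmk had the order of Prf1, with overlap between the Cd8a and Ifng gates and between the Foxp3 and Il17a gates.

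Across the 20 library and gate sums, the gate profile most like that of Prf1 among 5434 genes, by Pearson's r on log2(CPM + 10), was that of Ikbkb, a kinase of the NF-kappaB pathway, at 0.952. Padi2 (0.952), Cd200r4 (0.946), Sp100 (0.935) and Marf1 (0.931) followed. Of the members, Ctsw had r = 0.921 (rank 9), Gzmk 0.891 (rank 25), Nkg7 0.887 (rank 30), Gzmb 0.819 (rank 111) and Gzma 0.696 (rank 427), while Serpinb6b had 0.682 and Serpinb9 0.551. The sums share libraries and their depth, so these are descriptions without a test.

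Within single cells, all 3 granzymes that could be assessed came with perforin. The 1014 cells with a thinned Prf1 UMI were compared with the 19738 without one, both at 2000 UMIs, over 10139 genes. Gzmb had 1978, 2273, 2036 and 2092 CPM in Prf1-positive cells, against 953, 922, 911 and 1035 CPM in Prf1-negative cells. All positive sums were above all negative sums, by 1.13 ± 0.04 on the log2 scale (adjusted p = 1.24e-24, edgeR, higher in 4 of 4 libraries). Gzma had 4073, 3371, 2930 and 3329 CPM in Prf1-positive cells and 1555, 1738, 1591 and 1912 CPM in Prf1-negative cells, without overlap (0.99 ± 0.05, adjusted p = 3.91e-20). Gzmk had 179, 232, 254 and 245 CPM, against 127, 88.3, 129 and 111 CPM, again without overlap (1.03 ± 0.10, adjusted p = 1.96e-10).

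The companions followed, and the serpins did not pass. Nkg7 rose by 0.61 ± 0.04, from sums of 1380 to 1623 CPM in Prf1-positive cells against 842 to 1082 CPM in Prf1-negative cells. Ctsw rose by 0.37 ± 0.06 (adjusted p = 1.19e-05). Serpinb9 had 160, 186, 153 and 115 CPM in Prf1-positive cells and 144, 147, 123 and 103 CPM in Prf1-negative cells, a difference of 0.24 ± 0.09 that did not pass (adjusted p = 0.220). Serpinb6b differed by 0.09 ± 0.08 (adjusted p = 0.793). On counts that were not thinned both passed, with adjusted p = 0.0418 for Serpinb9 and 0.0443 for Serpinb6b, and Serpinb9 also passed at 3000 UMIs (0.0255). Gzmc had 0, 1.95, 3.79 and 1.61 CPM in Prf1-positive cells, too few UMIs to place it. Of 8 members tested besides Prf1, 5 rose, in a comparison where 2.31% of all genes passed in either direction, 0.898% higher and 1.41% lower.

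In shares of cells, Gzmb was found in 51.1%, 47.7%, 45.8% and 50.6% of Prf1-positive cells in libraries 1 to 4, against 27.7%, 26.6%, 25.9% and 27.6% of Prf1-negative cells. Gzma was found in 63.6%, 52.0%, 43.9% and 57.1% of Prf1-positive cells, a wider spread, against 33.0% to 34.8% of Prf1-negative cells. Gzmk was found in 25.0%, 27.0%, 28.8% and 23.9% of Prf1-positive cells, against 11.5% to 16.1% of Prf1-negative cells. None of these groups overlapped. Serpinb6b was found in 26.3% ± 4.80 of Prf1-positive cells and 23.7% ± 1.20 of Prf1-negative cells, and here the libraries overlapped.

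**Figure D3:**
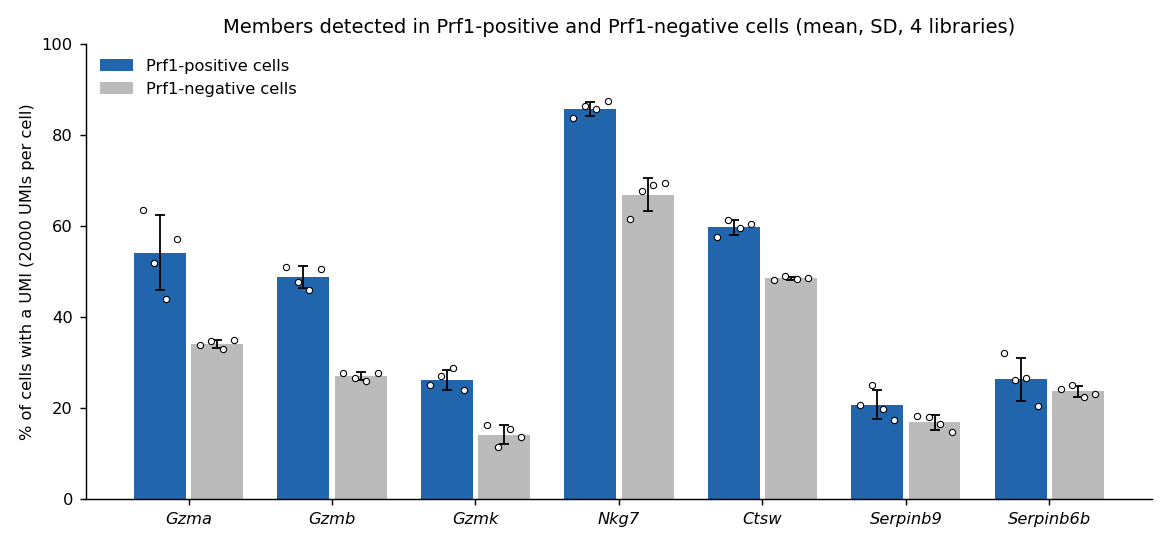
Percent of cells with a UMI of each member among Prf1-positive and Prf1-negative cells, all thinned to 2000 UMIs, with bars at the mean of the 4 libraries, error bars of 1 SD and 1 point per library. Gzmb was in 48.8% of Prf1-positive and 26.9% of Prf1-negative cells, while the points of Serpinb6b overlapped.

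Read in the other direction, most granzyme-positive cells had no perforin UMI. Prf1 was found in 7.48% ± 1.60 of Gzma-positive cells and 3.51% ± 1.10 of Gzma-negative cells (SD, n = 4 libraries). It was found in 8.53% ± 1.92 of Gzmb-positive and 3.50% ± 0.830 of Gzmb-negative cells, and in 8.88% ± 2.44 of Gzmk-positive and 4.25% ± 1.01 of Gzmk-negative cells. With 88.9% of Prf1-bearing cells holding a single UMI, these shares count cells with a UMI and not cells with perforin.

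The share of cells with Prf1 was then read against the amount of granzyme in the same cell. Prf1 was found in 5.01% of cells with 1 Gzma UMI, 7.32% with 2 to 4, 7.87% with 5 to 9 and 9.11% with 10 or more, against 3.51% with none. For Gzmb the shares were 6.38%, 8.50%, 8.28% and 10.9%, against 3.50% with none. For Gzmk they were 8.91% with 1 UMI and 8.58% with 2 to 4, against 4.25% with none, and these 2 positive steps differed by less than the spread between libraries. In every library the share was higher in cells with 10 or more Gzma UMIs (7.36% to 12.3%) than in cells with 1 (4.12% to 6.86%), and likewise for Gzmb (8.38% to 12.2%, against 4.76% to 7.21%).

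**Figure D4:**
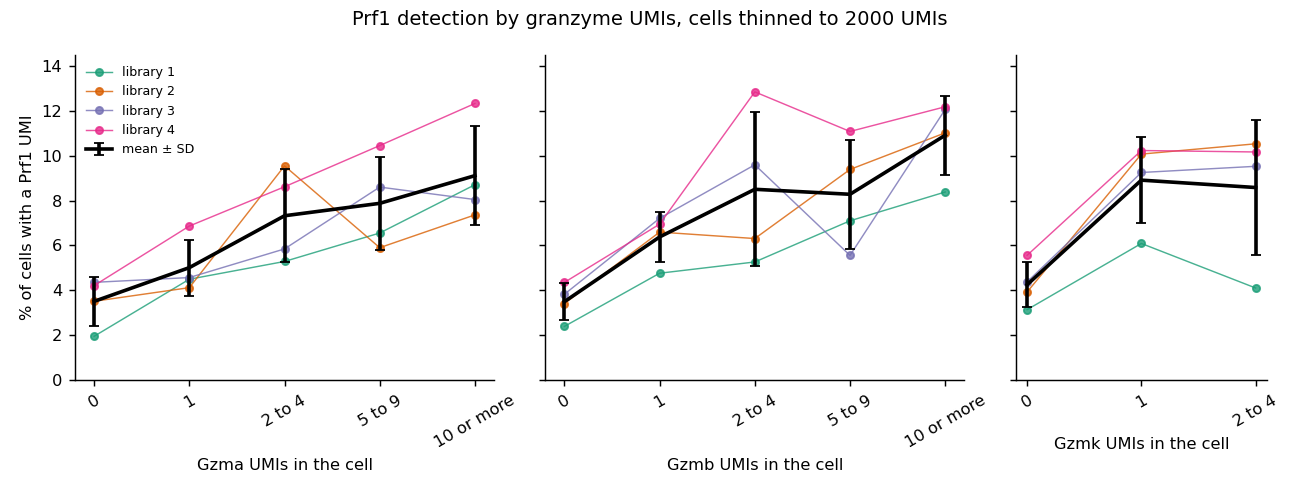
Percent of cells with a Prf1 UMI by the number of Gzma, Gzmb or Gzmk UMIs in the same thinned cell, with thin lines for the 4 libraries and a thick line for their mean with 1 SD. The mean reached 10.9% at 10 or more Gzmb UMIs, against 3.50% in cells without Gzmb.

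Combinations of the 3 granzymes separated further. Among Prf1-positive cells 11.5% ± 0.973 had all 3, against 5.07% ± 0.558 of Prf1-negative cells, and 27.2% ± 4.62 had Gzma with Gzmb alone, against 13.7% ± 0.816. Cells with Gzma as their only granzyme of the 3 made up 12.5% ± 2.96 of Prf1-positive and 12.7% ± 0.643 of Prf1-negative cells, and cells with Gzmb as the only one 6.57% ± 2.49 and 6.62% ± 0.439, with overlapping libraries. Gzmk as the only one was found in 8.10% ± 2.46 of Prf1-positive cells and 4.95% ± 1.30 of Prf1-negative cells, again with overlapping libraries, and in library 1 the shares were 5.98% and 5.97%. None of the 3 was found in 27.6% ± 3.57 of Prf1-positive cells, against 52.8% ± 1.12 of Prf1-negative cells.

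Counted per combination, Prf1 was found in 10.5% of cells with all 3 granzymes, 10.8% with Gzmb and Gzmk, 9.15% with Gzma and Gzmb, and 5.38% with Gzma and Gzmk. It was found in 8.22% of cells with Gzmk alone, 4.98% with Gzmb alone and 4.75% with Gzma alone, against 2.66% with none of the 3. Library 1 was lower than the others in several of these. Its share was 3.50% with Gzmk alone, against 8.89% to 11.2% in the other 3 libraries, and 1.92% with Gzmb alone, against 5.35% to 6.59%. In library 1 the share with Gzmk alone was thus below the 4.70% with Gzma alone, the reverse of the order of the means.

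The pairing was then set against what independent detection within each library would give. Gzma and Gzmb were found together in 4096 cells, 2.01 times the expected number, between 1.98 and 2.05 in the 4 libraries. Gzmk and Prf1 were together at 1.79 times the expected number, Gzmb and Prf1 1.74 times and Gzma and Prf1 1.53 times. By library these ranged from 1.52 to 2.21 for Gzmk, 1.70 to 1.79 for Gzmb and 1.31 to 1.83 for Gzma, and in library 1 the order was reversed, with Gzma highest and Gzmk lowest. The highest ratio a pair can reach is lower where its commoner gene is in more cells (14.7% for Gzmk, 28.0% for Gzmb, 35.0% for Gzma). The ratios here therefore do not rank the granzymes, or other pairs of unlike shares, by how closely they go together. When the expectation was formed within each gate, the ratios were 1.81 for Gzma with Gzmb, 1.59 for Gzmk with Prf1, 1.58 for Gzmb with Prf1 and 1.42 for Gzma with Prf1. Gzmb and Gzmc, neighbours on chromosome 14, had 2.55, from 72 cells. Gzma and Gzmk, neighbours on chromosome 13, had 1.55, and Gzmb and Gzmk, which lie on different chromosomes, had 1.70. Since Gzma and Gzmb have unlike shares, these 2 values are not ranked. Both serpins, neighbours on chromosome 13, had 1.62 with each other, against 1.22 for Serpinb9 with Prf1 and 1.08 for Serpinb6b with Prf1.

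**Figure D5:**
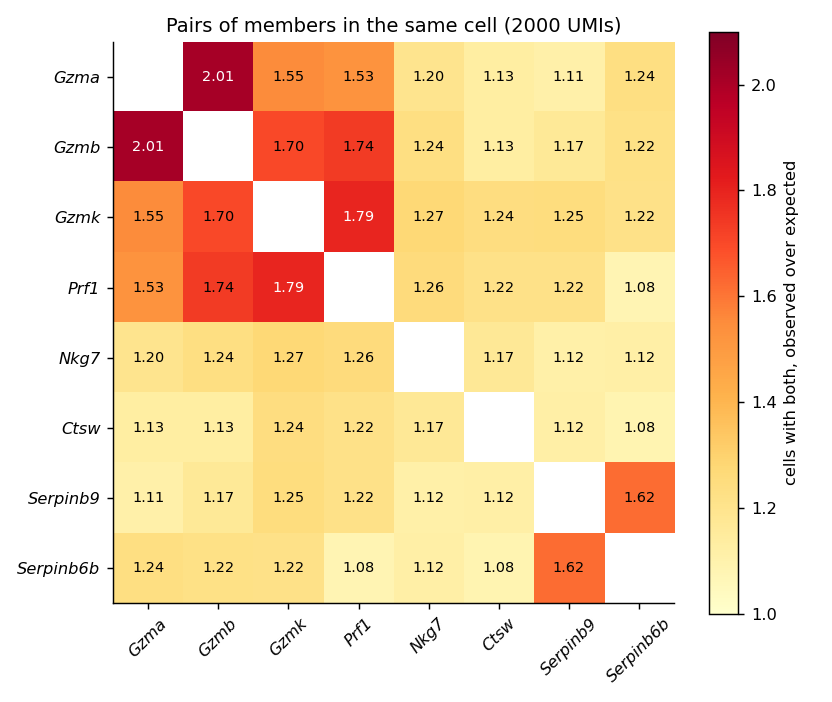
Ratio of observed to expected cells for each pair of members in thinned cells, where the expectation assumes independent detection within each library and 1 means independence. The Gzma and Gzmb pair stood at 2.01, and Prf1 stood at 1.79 with Gzmk, 1.74 with Gzmb, 1.53 with Gzma and 1.08 with Serpinb6b. The highest possible ratio is lower for commoner genes, so the ratios do not rank pairs of unlike shares.

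Within gates, the pairing with granzymes could be tested where each library had at least 20 Prf1-positive cells, which held for the Ifng gate and the rest. In the rest, Gzmb had 1667, 1540, 1650 and 1576 CPM in Prf1-positive cells, against 722, 619, 617 and 577 CPM in Prf1-negative cells (1.33 ± 0.16, adjusted p = 2.86e-08, edgeR). Gzma (1.16 ± 0.16), Gzmk (1.00 ± 0.19), Nkg7 (0.66 ± 0.08) and Ctsw (0.43 ± 0.09) rose there as well, although Gzmk in library 1 had 94.4 CPM in Prf1-positive and 94.3 CPM in Prf1-negative cells. That made 5 of 7 members tested, where 0.712% of 5616 genes passed, 0.356% in each direction. Ctsw lost the call without library 2, 3 or 4.

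In the Ifng gate only Gzmk of the 7 members tested passed, with 329, 346, 306 and 343 CPM in Prf1-positive cells and 222, 161, 191 and 159 CPM in Prf1-negative cells (0.85 ± 0.16, adjusted p = 0.00335), where 0.0890% of genes passed, 0.0534% higher and 0.0356% lower. That call was lost without library 4 (adjusted p = 0.0767) and on counts that were not thinned (0.801). Gzmb was higher in Prf1-positive sums in all 4 libraries of the Ifng gate, at 1733 to 2186 CPM against 1185 to 1330 CPM, without passing (0.67 ± 0.16, adjusted p = 0.0631). Gzma had 2638 to 3336 CPM against 1550 to 1919 CPM (0.66 ± 0.16, adjusted p = 0.0931). The difference between the gates was itself tested, as the Prf1 effect in the Ifng gate minus that in the rest. It passed in edgeR for 0 of 5616 genes, with 231 genes at an unadjusted p under 0.05, and for Gzmb it was −0.67 ± 0.22 (adjusted p = 0.777). DESeq2 was not run on this difference.

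The remaining gates had too few Prf1-positive cells for a fit and are described by their counts, with exact Clopper-Pearson 95% intervals where libraries were pooled. In the Foxp3 gate Prf1 was in 31 of 591 Gzmb-positive cells (5.25%, interval 3.59% to 7.36%), against 23 of 915 Gzmb-negative cells (2.51%, interval 1.60% to 3.75%), and the share was higher in Gzmb-positive cells of each library. In the Cd8a gate library 4 held most of the cells and had the highest shares of both genes, so the share is given by library. There, Prf1 was in 10.2%, 13.3%, 11.9% and 14.3% of Gzmb-positive cells of libraries 1 to 4, against 0%, 3.03%, 2.22% and 8.33% of Gzmb-negative cells, higher within each library on as few as 42 and 33 cells. For Gzmk the shares were 4.35%, 10.0%, 9.68% and 16.5% of Gzmk-positive cells, against 6.15%, 9.59%, 5.36% and 11.5% of Gzmk-negative cells, with library 1 in the other direction. In the Il17a gate Prf1 was in 6 of 574 cells, 3 of them with Gzmb.

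CD8 transcripts moved with Prf1. Cd8a and Cd8b1 summed to 29.9, 119, 34.1 and 132 CPM in Prf1-positive cells, against 19.4, 31.5, 17.5 and 56.1 CPM in Prf1-negative cells. With all cells bearing either transcript left out, Gzmb (1.10), Gzmk (1.03) and Gzma (0.93) still passed on the log2 scale. Gamma-delta T cell genes summed to 385 to 587 CPM in Prf1-positive and 205 to 429 CPM in Prf1-negative cells, and their part was not tested.

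Each granzyme was also taken in turn as the gene that divides the cells. Prf1 had 34.3, 44.2, 46.4 and 58.1 CPM in Gzmb-positive cells and 12.4, 17.8, 19.4 and 22.6 CPM in Gzmb-negative cells (1.33 ± 0.09), without overlap. It had 34.7, 37.5, 35.2 and 51.6 CPM in Gzma-positive and 10.1, 18.3, 22.4 and 22.3 CPM in Gzma-negative cells (1.12 ± 0.12). In Gzmk-positive cells it had 27.7, 56.0, 48.3 and 55.9 CPM, against 16.8, 20.8, 22.6 and 29.1 CPM in Gzmk-negative cells (1.05 ± 0.12), where library 1 of the positive cells overlapped the negative sums. All 3 passed in edgeR.

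Gzma and Gzmb were found with each other. Gzmb had 2348, 2314, 2370 and 2650 CPM in Gzma-positive cells, against 263, 257, 261 and 222 CPM in Gzma-negative cells, a log2 fold change of 3.26 ± 0.05. Gzmk rose by 1.07 ± 0.08 with Gzma and by 1.24 ± 0.06 with Gzmb. Both serpins passed with each granzyme, Serpinb9 by 0.38 with Gzma, 0.40 with Gzmb and 0.50 with Gzmk, and Serpinb6b by 0.63, 0.51 and 0.35. The Serpinb9 calls were lost without the library block (adjusted p = 0.155, 0.126 and 0.0819). With Gzma, 8 of 8 members tested rose, where 16.2% of all genes passed, 8.59% higher and 7.60% lower. With Gzmb it was 8 of 8, where 13.4% passed, 6.63% higher and 6.75% lower. With Gzmk it was 7 of 8, where 8.49% passed, 3.66% higher and 4.83% lower. These comparisons use the same cells divided in different ways, and whether one granzyme's tie to Prf1 exceeds another's was not tested.

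Eomes and Klrg1, genes of T cell state, moved in opposite directions with Gzmk and with Gzma, a contrast that was not itself tested. Eomes, a T-box factor of memory and cytotoxic cells, had 9.24, 12.9, 36.1 and 50.9 CPM in Gzmk-positive cells and 0.682, 0.420, 1.05 and 0.824 CPM in Gzmk-negative cells (5.10 ± 0.27), but fell by 2.19 ± 0.32 on the log2 scale with Gzma and did not pass with Gzmb (−0.58, adjusted p = 0.245). Klrg1, an inhibitory receptor, fell by 3.13 ± 0.17 with Gzmk and rose by 0.44 ± 0.06 with Gzma. In Prf1-positive cells Eomes rose by 1.87 ± 0.36, with 5.43 to 32.3 CPM against 1.55 to 6.39 CPM in Prf1-negative cells, and Klrg1 fell by 1.11 ± 0.17.

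Other genes of the pathway were taken by list. In Prf1-positive cells all 4 chemokines of cytotoxic cells rose, at a median log2 fold change of 1.16 against 0.00 over all genes. Ccl5, a chemokine that draws T cells, had 7113 to 10250 CPM in Prf1-positive and 2830 to 4811 CPM in Prf1-negative cells (1.12 ± 0.03). Ccl4 rose by 1.20 ± 0.09, Ccl3 by 1.78 ± 0.23 and Xcl1 by 0.63 ± 0.06. None of 7 granule maturation genes (medians −0.02 and 0.00) and none of 11 granule release genes, such as Rab27a and Unc13d, passed. Of all genes 2.31% passed, 0.898% higher and 1.41% lower, so the lack of a call in lists this short does not set them apart. Of 5 other serpins and cathepsin inhibitors, Cst7, which encodes a cystatin of cytotoxic granules, rose by 0.38 ± 0.09, and of 5 death ligands Fasl rose by 0.43 ± 0.07.

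Among 14 factors of the killing programme, Eomes and Runx3 (0.33 ± 0.09) rose with Prf1, and Tcf7 (−0.56 ± 0.11), a factor of naive and memory-like T cells, and Ikzf2 (−0.32 ± 0.08) fell. Among 11 receptors of the natural killer type, Cd244 (1.52 ± 0.32) and Slamf7 (0.63 ± 0.08) rose and Klrg1 and Tyrobp (−3.03 ± 0.71) fell. Outside the lists, Entpd1, which encodes the ectonucleotidase CD39, rose by 1.10 and Itga1, a collagen-binding integrin chain of tissue-resident cells, by 0.98. Those that fell furthest included Il22, a cytokine of type 17 cells, with 0.403 ± 0.806 CPM in Prf1-positive and 77.6 ± 47.8 CPM in Prf1-negative cells (SD, n = 4 libraries), and Il17a, with 23.2 ± 39.2 and 102.6 ± 43.6 CPM. Penk fell by 2.27 on the log2 scale, and Igha and Jchain fell further. Igha and Jchain are plasma cell genes, and the plasma cell list summed to 0 to 5.86 CPM in Prf1-positive and 26.0 to 174 CPM in Prf1-negative cells. The granzymes Gzmd, Gzme, Gzmf, Gzmg and Gzmn were too low to test in any comparison.

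The same lists set the gates apart. In the Foxp3 gate 6 of 11 granule release genes rose, among them Stx11 (1.07) and Rab27a (0.56), and 4 of 7 granule maturation genes rose, among them Srgn (0.75), which encodes the proteoglycan that holds granzymes in granules. The medians were 0.23 and 0.73, against −0.01 over all genes, of which 17.2% passed higher and 13.9% lower. Fasl, a death ligand, had 38.2, 61.3, 44.6 and 59.5 CPM in the Foxp3 gate, against 167, 214, 202 and 202 CPM in the rest (−1.92 ± 0.10), and Ccl5 fell by 1.29 ± 0.13. Serpinb6a, a further clade B serpin, rose by 1.45 ± 0.08 there, unlike Serpinb6b and Serpinb9.

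In the Cd8a gate 7 of 11 natural killer-type receptors rose, among them Klrd1 (4.50), Cd244 (4.11) and Cd160 (1.11), and 1 fell, Klrg1 (−3.11). The 7 that rose include Tyrobp and Fcer1g, also counted above as markers of other cell types. In library 4 Tyrobp had 4.60 CPM in the gate, against 13.7 CPM in the rest, and Fcer1g had 9.96 CPM, against 9.54 CPM. Klrd1 had 75.3, 269, 94.9 and 26.8 CPM in the gate, lowest in library 4, against 2.42 to 6.25 CPM in the rest. Of 4 chemokines 3 rose, with Ccl5 at 13450 to 20994 CPM against 2267 to 3308 CPM in the rest (2.48 ± 0.14). Of 14 killing programme factors 1 rose, Runx3 (0.54), and 7 fell, among them Zbtb7b (−1.73), the factor of the CD4 lineage. Beside these list counts for the Cd8a gate, 4.79% of all genes passed higher and 6.51% lower. In the Il17a gate Serpinb1a, which encodes a serpin that inhibits neutrophil elastase, had 163, 103, 136 and 92.3 CPM against 15.2 to 37.8 CPM in the rest (2.31 ± 0.15), and Tbx21 fell by 1.10 on the log2 scale. In the Ifng gate all 4 chemokines rose, from 0.46 for Ccl5 to 1.91 for Ccl3, and Tbx21, the factor that drives Ifng, rose by 0.44. There 2.91% of all genes passed higher and 3.38% lower.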

How the data were processed

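Per the submitters' processing notes, the authors made the counts with Cell Ranger 3.0.2 on mm10. They deposited whole-number UMI counts per gene and barcode, not normalized. The smallest barcode held 502 UMIs, so empty droplets were not available here. The matrices held 28783972, 26407082, 23918884 and 26681150 UMIs.

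Barcodes under 500 genes or 1000 UMIs, or above 10% mitochondrial UMIs, were dropped, which left 22534 of 22904. Scrublet scores (scanpy 1.11.5) then removed 1033 cells, at 0.8% per 1000 barcodes, which left 21501. Counts were summed per library and gate, or per library and state of Prf1, Gzma, Gzmb or Gzmk (at least 1 UMI after thinning to 2000 UMIs; cells with fewer UMIs were left out there). The sums were tested with edgeR 4.0.16 in R 4.3.3 (glmQLFit, glmQLFTest, TMM scaling, filterByExpr) with the library as a block, since both sums come from the same library, and Benjamini-Hochberg adjustment over all genes tested at 0.05. An exact permutation test of 4 library pairs cannot go below p = 0.125. The fit was also run on simulated counts drawn from the means of the real sums, with results not given here.

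The members, lists, tests and alternatives were chosen with earlier results of these data known. Genes named outside the lists were, for Prf1, the 10 that rose most and the 5 that fell most among those that passed, moved alike in 4 libraries and reached 20 CPM in 1 state, and the 5 genes most like Prf1. Variable segments of T cell receptors and immunoglobulins, and predicted, ribosomal and mitochondrial genes, were left out. The gate genes were also left out of the ranking by likeness to Prf1.

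Alternatives were DESeq2 1.42.0, other scaling, no filter on low counts, no block, other cell filters, other depths and leaving out each library. Gene positions came from the GENCODE mm10 annotation, which held 30934 of the 31053 gene IDs, and promoters from RefSeq for 9 of the 10 members.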

Additional observations from a re-analysis of the deposited data

Results flagged for a closer look

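Of 108 sets of 4 library values examined for a library that stands far from the other 3, 4 had one, and chance alone gives about 1 in 20. The Cd8a gate held 5.94% of the cells of library 4, against 1.65% to 1.78% in the other 3 libraries. The share of Gzma-positive cells with a Prf1 UMI was 9.87% in library 4, against 6.39% to 6.92% in the others, and the part of the Cd8a gate in that share was not tested. Nkg7 in the Ifng gate had 1096 CPM in library 1, against 1380 to 1404 CPM in the others. Gzmc over all cells had 4.48 CPM in library 1, against 2.68 to 2.86 CPM in the others.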

How the results depend on the processing

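Of 852 values that alternatives gave for the 61 called results on members, 826 kept their direction and call, 26 lost the call and 0 reversed. The fit without the replicate block lost 9 of the 61. Because the library pairs the sums by construction, the block was kept. Counts of genes past the threshold moved more, and the cause was not tested.

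For gates against the rest, thinned cells gave 1610 genes in the Foxp3 gate (3051 as reported), 536 in the Il17a gate (2330) and 590 in the Cd8a gate (1109). The Ifng gate gave 941 without the filter on low counts and 201 without the replicate block (618). Prf1-positive cells gave 107 with DESeq2, 392 without the filter, 22 without the replicate block, 531 on counts not thinned and 417 at 3000 UMIs (234). With DESeq2, without the replicate block and on counts not thinned, Gzma-positive cells gave 630, 594 and 2578 (1657), Gzmb-positive cells 588, 555 and 2167 (1371), and Gzmk-positive cells 370, 256 and 1593 (868). Within the Ifng gate the Prf1 counts were 55 without the filter, 0 without the replicate block, 2 on counts not thinned and 33 with only the compared gates in the fit (5). Within the rest they were 132, 11, 85 and 103 (40). The difference between these gates gave 8 without the filter and 6 with only the compared gates (0). The fit of only the compared gates was chosen after seeing the data.

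Leaving out 1 library gave 2331 to 2783 genes in the Foxp3 gate, 1456 (without library 1) to 1985 in the Il17a gate, 750 to 956 in the Cd8a gate and 370 to 549 in the Ifng gate (386 without library 1 and 370 without library 2). It gave 153 (without library 4) to 193 for Prf1, 1230 to 1367 for Gzma, 1007 to 1204 for Gzmb and 560 (without library 2) to 832 for Gzmk. Within the Ifng gate it gave 9 without library 1, 8 without library 2 and 2 without library 4, within the rest 17 (without library 2) to 39, and 0 for the difference.

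Values that changed sign were all uncalled in the reported fit. Gzmc in the Cd8a gate was 0.53 with gates at 2 UMIs and −1.48 to 0.0857 when 1 library was left out, above 0 without library 4. Serpinb9 there was −0.218 to 0.0642, above 0 without library 2. Gzmc with Prf1 was 0.26 on counts not thinned and 0.25 at 3000 UMIs. Gzmc with Gzmk was −0.0703 with DESeq2, −0.0414 without doublet removal and −0.23 to 0.278 when 1 library was left out, below 0 without library 1 or 2. Within the Ifng gate Serpinb6b was 0.0801 on counts not thinned and Ctsw −0.00244 without the filter. The Serpinb9 difference between gates was −0.20 on counts not thinned. Depth limits Prf1, Gzmc and Gzmm most.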
